A study of Mus musculus with 6 samples.

Results

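Of 55421 genes in the deposited count table, 10 were examined here because they are known from macrophages that reside in splenic red pulp, in marrow erythroblastic islands or in liver: Vcam1, Itgad, Siglec1, Timd4, Vsig4, Epb41l3, Slco2b1, Cd5l, Fcna and Spic. They were chosen by symbol, with the knowledge that several were lower in knockout cells, so their difference between genotypes is given below as a description and not as a test. All 10 were among the 13588 genes that passed the filter on low counts. Timd4, Vsig4 and Itgad passed only through their wild type libraries, since in knockout not all 3 libraries reached the level of the filter. Their fold changes and calls are therefore those of genes let in by the group where they are high. The 6 libraries, 3 per genotype, came from mouse bone marrow-derived macrophages, primary cells that are obtained by culturing marrow. The Tmem175 knockout cells were Tmem175flox/flox Lyz2-Cre+/-, so both alleles of Tmem175, a gene for a lysosomal ion channel, were floxed and Cre was expressed from the Lyz2 locus, which is active in myeloid cells. The wild type cells carried neither change by their label, and no library held floxed alleles or Cre alone, so loss of Tmem175 cannot be told apart from effects of Cre, of its insertion or of genetic background. Neither age nor the number of animals is stated in the labels, and libraries may share animals, so spread and p-values measure the variation between these libraries, which may be technical.

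Macrophages settle in tissues and there take on programmes set by the organ. Red pulp macrophages of the spleen and Kupffer cells of the liver clear aged red cells and recycle their iron, and marrow island macrophages hold developing erythroblasts and remove their expelled nuclei. The transcription factor Spi-C drives the red pulp programme, VCAM1 and the sialic acid receptor CD169 mark island and red pulp macrophages, and CRIg (Vsig4), TIM-4 (Timd4), CD5L and ficolin A (Fcna) are known from Kupffer cells.

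Total counts ranged from 25979430 to 31542741 in knockout and from 24179548 to 25916709 in wild type libraries. Tmem175 stood at 14.3, 13.2 and 12.1 CPM (counts scaled to library size, with TMM factors) in knockout libraries 1, 2 and 3, against 32.8, 33.4 and 33.2 CPM in wild type libraries, and Lyz2 averaged 53.8% of its wild type level. Core macrophage genes were abundant in every library: Adgre1, which encodes F4/80, averaged 2662 CPM in the knockout group and 2590 CPM in the wild type group. A principal component analysis did not separate the genotypes on its leading axis (28.6% of variance), where knockout libraries lay between -1.77 and 17.8 and wild type libraries between -21.2 and 9.99. The second axis (20.8%) did, with knockout libraries between -14.6 and -4.06 and wild type libraries between -1.77 and 26.8. Member values are therefore given for each library.

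RefSeq promoter windows on GRCm38.p6, from 250 bases before to 50 bases after a transcript start, were given for 7 of the 10 genes, 11 windows in all. Those of Vsig4 and Timd4, both far lower in knockout, and of Cd5l and Fcna, which are more abundant and changed less, are shown to compare their letters. Capitals mark GAGGAA, the core bound by PU.1 and Spi-C, and TGCTGA, a Maf recognition core, on either strand; the reverse complements read TTCCTC and TCAGCA.
Vsig4, chrX:96293389-96293688, minus strand: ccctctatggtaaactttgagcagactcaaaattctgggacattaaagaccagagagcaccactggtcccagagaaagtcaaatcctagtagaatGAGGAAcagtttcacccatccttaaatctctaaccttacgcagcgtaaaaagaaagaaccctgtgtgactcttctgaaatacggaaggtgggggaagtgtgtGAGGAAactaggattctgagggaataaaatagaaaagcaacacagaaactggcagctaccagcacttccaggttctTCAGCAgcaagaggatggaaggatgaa
Timd4, chr11:46810549-46810848, plus strand: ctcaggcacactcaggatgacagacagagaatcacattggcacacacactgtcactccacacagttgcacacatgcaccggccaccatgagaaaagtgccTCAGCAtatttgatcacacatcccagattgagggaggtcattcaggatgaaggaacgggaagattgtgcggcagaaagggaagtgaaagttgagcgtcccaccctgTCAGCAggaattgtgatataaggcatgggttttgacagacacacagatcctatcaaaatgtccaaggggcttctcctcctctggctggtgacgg
Cd5l, chr3:87357631-87357930, plus strand: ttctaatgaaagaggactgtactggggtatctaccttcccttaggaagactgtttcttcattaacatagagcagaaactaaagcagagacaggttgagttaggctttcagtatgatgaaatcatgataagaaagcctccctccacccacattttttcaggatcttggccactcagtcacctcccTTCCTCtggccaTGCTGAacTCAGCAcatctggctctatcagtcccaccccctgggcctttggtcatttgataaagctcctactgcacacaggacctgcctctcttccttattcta
Fcna, chr2:25627925-25628224, minus strand: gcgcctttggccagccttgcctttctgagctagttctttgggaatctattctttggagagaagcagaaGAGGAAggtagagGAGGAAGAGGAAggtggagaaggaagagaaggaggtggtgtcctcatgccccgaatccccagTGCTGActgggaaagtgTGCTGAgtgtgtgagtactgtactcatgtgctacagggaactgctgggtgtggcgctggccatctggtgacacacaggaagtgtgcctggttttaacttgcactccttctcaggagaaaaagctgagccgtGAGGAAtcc
The window of Vsig4 held 2 matches of GAGGAA and 1 of TGCTGA, that of Timd4 held 0 and 2, that of Cd5l 1 and 2, and that of Fcna 4 and 2. Over the 11 windows, GAGGAA occurred in 6, of 4 genes, and TGCTGA in 6, of 6 genes, while 28.3% and 19.5% of all 32851 windows held them. Of the other motifs searched on both strands, the AP-1 site TGANTCA was found in 1 window, of Slco2b1, against 7.81% of all windows. The interferon response element, the kappa B site, the E-box CACGTG and the LXR direct repeat matched none of the 11 windows; they were found in 3.44%, 4.59%, 7.15% and 0.0152% of all windows. The windows of the far lower and of the less changed genes both held the marked letters, and a match is a string of letters and not a shown binding site.

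Among the adhesion molecules, the levels in knockout cells ranged from 9.94% of wild type for Itgad to 88.2% for Siglec1. Vcam1 (ENSMUSG00000027962, chromosome 3, 116109949 to 116129688), an immunoglobulin-family receptor for the integrin VLA-4, stood at 5.14, 4.09 and 6.73 CPM in knockout libraries and at 30.1, 29.6 and 30.7 CPM in wild type libraries. Every knockout value lay far below every wild type value, and 17.7% of the wild type mean remained (log2 fold change -2.51, SE 0.13). It had the most negative fold change of the 9540 genes averaging 5 CPM or more.

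Itgad (ENSMUSG00000070369, chromosome 7, 128154376 to 128223816), the CD11d chain that pairs with the integrin beta chain Itgb2 and, in human, binds VCAM1, had counts of 13, 2 and 16 in knockout libraries and of 82, 90 and 96 in wild type libraries. Its mean was 0.363 ± 0.274 CPM in the knockout group and 3.65 ± 0.202 CPM in wild type libraries (SD, n = 3 each). The log2 fold change was -3.34 (SE 0.41). Knockout library 2, with 2 counts, lay well below the other two. Siglec1 (ENSMUSG00000027322, chromosome 2, 131069220 to 131086765), which encodes CD169, had by far the most counts of the 10 genes, with 510, 554 and 561 CPM in the knockout group and 538, 588 and 718 CPM in wild type libraries. The genotypes overlapped, since knockout libraries 2 and 3 lay above wild type library 1 (log2 fold change -0.18, SE 0.09).

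Both uptake receptors were scarce, and lower in each knockout library than in any wild type library. Timd4 (ENSMUSG00000055546, chromosome 11, 46810800 to 46844332), a phosphatidylserine receptor for dying cells, had counts of 5, 8 and 8 in knockout and of 29, 38 and 40 in wild type libraries, or 0.243 ± 0.0756 CPM in the knockout group and 1.45 ± 0.211 CPM in the wild type group (SD, n = 3 each). The log2 fold change was -2.58 (SE 0.33). Vsig4 (ENSMUSG00000044206, X chromosome, 96247203 to 96293438), a receptor for complement C3 fragments, had counts of 12, 8 and 18 in knockout and of 55, 50 and 52 in wild type libraries, or 0.444 ± 0.216 CPM in the knockout group and 2.14 ± 0.136 CPM in the wild type group (log2 fold change -2.28, SE 0.32). These levels were 16.7% of wild type for Timd4 and 20.7% for Vsig4. For comparison, a count of 3 corresponded to 0.0952 to 0.114 CPM in knockout libraries and to 0.119 to 0.125 CPM in wild type libraries.

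The membrane skeleton gene Epb41l3 (ENSMUSG00000024044, chromosome 17, 69075683 to 69289989), which encodes protein 4.1B, stood at 2.00, 1.63 and 2.62 CPM in the knockout group and at 7.22, 7.23 and 7.83 CPM in wild type libraries, without overlap (log2 fold change -1.84, SE 0.17). Slco2b1 (ENSMUSG00000030737, chromosome 7, 99657804 to 99711340), an organic anion transporter, stood at 6.22, 3.33 and 4.26 CPM in the knockout group and at 11.1, 9.98 and 10.4 CPM in wild type libraries (log2 fold change -1.18, SE 0.19). Knockout library 1 was the highest of its group for Slco2b1, whereas for Epb41l3 it lay between the other two.

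The secreted proteins and the transcription factor differed less. Cd5l (ENSMUSG00000015854, chromosome 3, 87357881 to 87371073), a scavenger-receptor family protein and a target of the nuclear receptor LXR in mouse macrophages, stood at 73.6, 61.7 and 70.4 CPM in the knockout group and at 92.0, 115 and 91.4 CPM in wild type libraries (log2 fold change -0.54, SE 0.10). Fcna (ENSMUSG00000026938, chromosome 2, 25624666 to 25628030), a lectin that starts the lectin pathway of complement, stood at 5.39, 6.69 and 5.67 CPM in knockout libraries, against 6.81, 8.14 and 9.18 CPM in wild type libraries (log2 fold change -0.44, SE 0.14). Spic (ENSMUSG00000004359, chromosome 10, 88674772 to 88685015), which encodes Spi-C, stood at 4.60, 3.99 and 3.46 CPM in knockout libraries, against 6.43, 5.18 and 5.96 CPM in wild type libraries (log2 fold change -0.54, SE 0.15). For each of these 3 genes the highest knockout library lay below the lowest wild type library, but for Fcna by little: the highest knockout value was 98.3% of the lowest wild type value, against 88.9% for Spic and 80.5% for Cd5l.

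**Figure D1:**
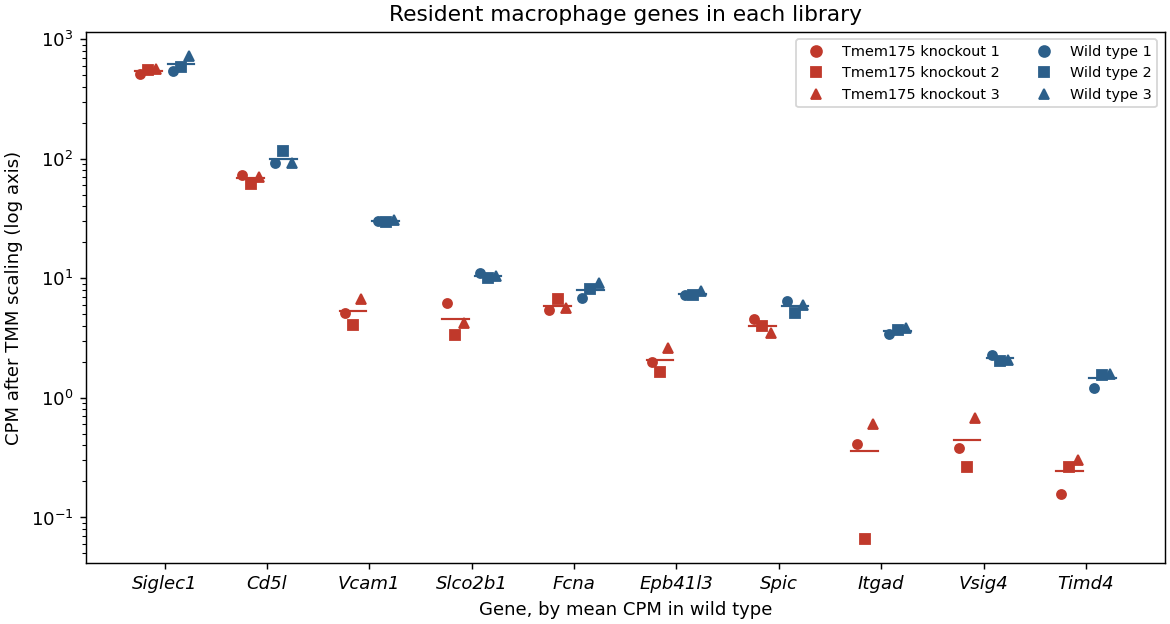
Level of each gene in each library, in CPM after TMM scaling on a log axis, with knockout libraries (red) left of wild type libraries (blue) and bars at the genotype means (n = 3 each). Siglec1 is the 1 gene of 10 whose genotypes overlap; Itgad, Vsig4 and Timd4 lie below 1 CPM in all 3 knockout libraries.

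In edgeR's quasi-likelihood test across all genes, 5 of the 10 were called lower at an adjusted p under 0.05 (Vcam1, Itgad, Timd4, Vsig4 and Epb41l3) and 0.0883% of all genes tested were called lower. None of the 10 was called higher, against 0.0147% of all genes tested, and 0.103% were called in either direction. The contrast was known when the genes were chosen, so this count carries no weight of its own. Groups did not overlap, with knockout lower, for 9 of the 10 and for 5.06% of all genes tested; with knockout higher this was so for 0 of the 10 and 5.73% of all genes. The median log2 fold change was -1.51 over the 10 genes and -0.00090 over all genes tested. With any 1 library removed (6 fits), Vcam1 and Epb41l3 were still called. Timd4 and Vsig4 were called in none of these 6 fits, where their log2 fold changes ran from -2.76 to -2.33 and from -2.70 to -2.02, and Itgad only without knockout library 1 or without knockout library 2 (-3.88 to -2.84 over the 6 fits). Slco2b1 was called without knockout library 1, with a log2 fold change of -1.47. These are bulk samples, in which fewer cells expressing a gene and less RNA per cell cannot be told apart.

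Levels of different genes were compared per length, as TPM (transcript abundance scaled to gene length and library size) computed from the counts and the union of annotated exons. In wild type libraries the order was Siglec1 (250 ± 34.1 TPM), Cd5l (142 ± 21.1), Fcna (17.0 ± 2.36), Vcam1 (9.86 ± 0.0348), Slco2b1 (5.12 ± 0.286), Spic (4.43 ± 0.452), Vsig4 (4.19 ± 0.281), Itgad (2.35 ± 0.118), Timd4 (1.94 ± 0.278) and Epb41l3 (1.81 ± 0.0583; SD, n = 3 each). In that order the libraries of Spic and Vsig4 overlapped, as did those of Timd4 and Epb41l3, and other neighbours did not. In knockout libraries the first 3 places by this length were the same, with Siglec1 at 238 ± 15.7, Cd5l at 105 ± 7.09 and Fcna at 13.5 ± 1.89 TPM. Vcam1 took the sixth place at 1.87 ± 0.441 TPM, behind Spic (3.27 ± 0.450) and Slco2b1 (2.41 ± 0.726), and Itgad the last at 0.249 ± 0.187 TPM. Libraries overlapped between Spic and Slco2b1, Slco2b1 and Vcam1, Vsig4 and Epb41l3, and Timd4 and Itgad, so these knockout places are not separated. The length used changes the order: with the longest transcript in place of the exon union, Vcam1 took the third place in wild type libraries, ahead of Fcna, and Epb41l3 took the seventh place in either genotype. By that length Vcam1 stood at 3.16 TPM in knockout and 16.9 TPM in wild type libraries, and Epb41l3 at 1.24 TPM in knockout and 4.17 TPM in wild type libraries.

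The most abundant genes, Siglec1 and Cd5l, were not among the far lower ones. Siglec1 and Cd5l lay at the 98.6th and 82.5th percentile of level among all genes tested, whereas the 5 called genes lay between the 11.1th (Timd4) and the 49.4th (Vcam1). Level here is the mean over both genotypes, which a fall in knockout itself lowers. In wild type libraries alone Vcam1 averaged 30.1 CPM, below only Siglec1 (615 CPM) and Cd5l (99.4 CPM) of the 10 genes. Level alone did not order the fold changes, since Spic (29.7th percentile) and Fcna (34.1th) had smaller fold changes than Epb41l3 (29.3th) and Vcam1. Siglec1 made up 83.9% to 87.1% of the summed CPM of the 10 genes in knockout libraries and 76.3% to 81.5% in wild type libraries. The sum over the 10 genes was 608 to 656 CPM in the knockout group and 699 to 881 CPM in wild type libraries. Without Siglec1 and Cd5l, the sum was 20.3 to 24.3 CPM in the knockout group and 67.4 to 71.5 CPM in wild type libraries. Vcam1 was the largest part of this last sum in wild type libraries, at a mean of 30.1 CPM against 5.32 CPM in knockout libraries.

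**Figure D2:**
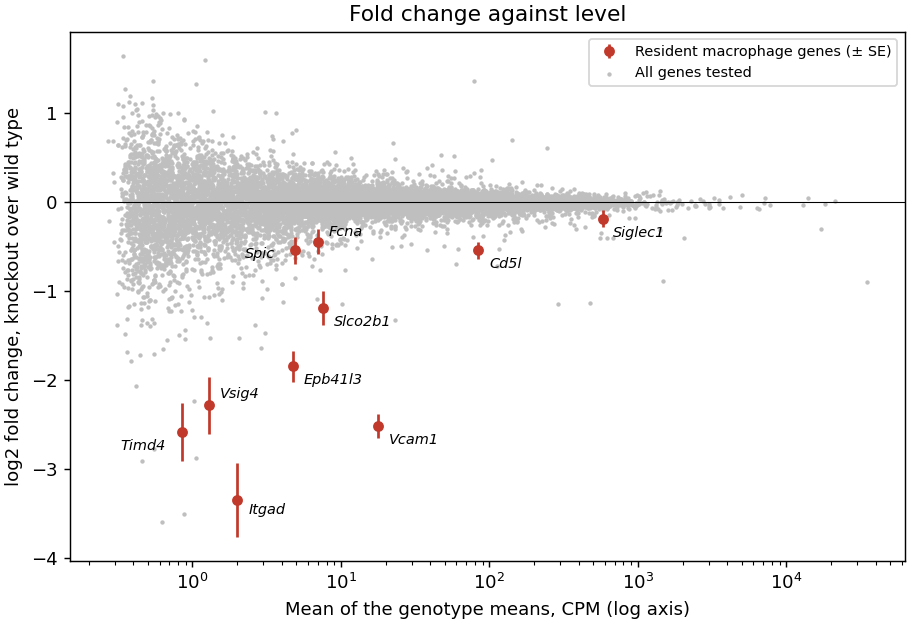
Log2 fold change of knockout over wild type against mean level in CPM (log axis) for all 13588 genes tested (grey) and the 10 resident macrophage genes (red, bars are SE). Vcam1, at -2.51, has the most negative fold change of genes averaging 5 CPM or more, and Siglec1, at -0.18, is the most abundant of the 10.

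Within the knockout group, 4 of the 5 called genes, and 4 of all 10 (40.0%), shared an order of libraries that 14.3% of all genes tested had. This order, like the wild type order given below, was picked after the values of the 10 genes were seen. Knockout library 3 was the highest and knockout library 2 the lowest for Vcam1, Vsig4, Itgad and Epb41l3. Counts in knockout libraries 1, 2 and 3 were 12, 8 and 18 for Vsig4, 13, 2 and 16 for Itgad and 63, 49 and 69 for Epb41l3. At these counts the full order of these 3 genes is not resolved. Over all 10 genes, library 3 was the highest knockout library for 6 and library 2 the lowest for 6; over all genes tested these shares were 31.0% and 33.9%. In the wild type group library 3 was the highest for 6 of the 10 genes (36.4% of all genes), and the order 3, 2, 1 held for 5 (Timd4, Itgad, Epb41l3, Fcna and Siglec1) and for 19.5% of all genes. For Vcam1, Timd4, Itgad and Epb41l3 the wild type libraries differed by no more than counting error, so their order there is not resolved. In the knockout group Timd4 was also highest in library 3 by CPM but lowest in library 1. Its counts were 8 in both libraries 2 and 3 and 5 in library 1, so this order is not resolved. Of the other genes there, Cd5l, Slco2b1 and Spic were highest in library 1, Fcna in library 2 and Siglec1 in library 3. Knockout library 3, with the highest values of Vcam1, Vsig4, Itgad and Epb41l3, had the lowest Tmem175 level of its group. This level was 12.1 CPM, close to the 13.2 CPM of library 2, with 14.3 CPM in library 1. The part of this in the result was not tested.

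**Figure D3:**
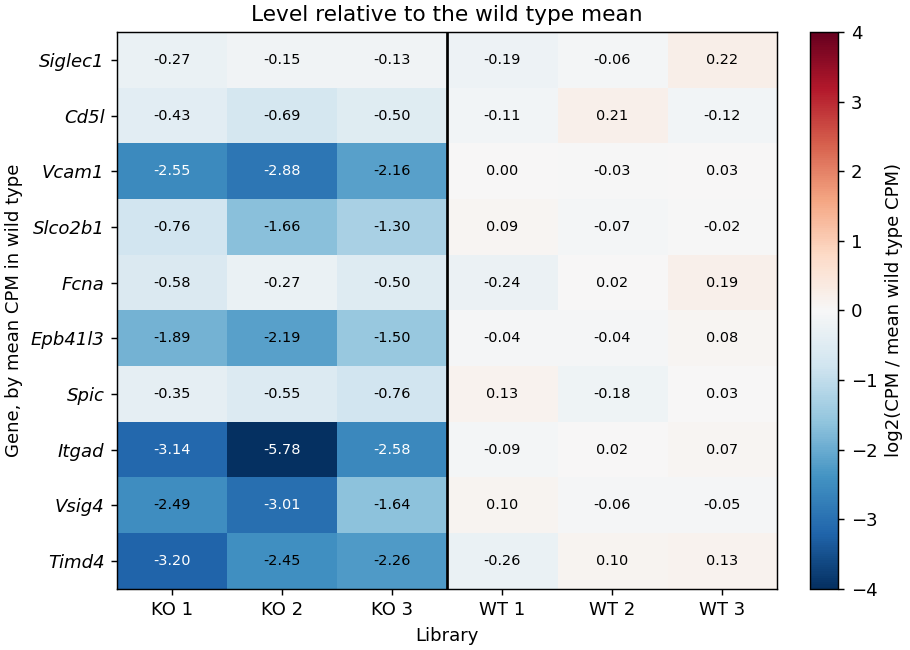
Log2 of each library's CPM over the mean wild type CPM of that gene, for knockout libraries (left 3 columns) and wild type libraries (right 3 columns); colour stops at 4 in either direction. Values of Itgad, Vsig4, Vcam1 and Epb41l3 are lowest in knockout 2 and highest in knockout 3 within their group, while the wild type columns run from -0.26 to 0.22.

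The spread between libraries was unequal in the 2 genotypes for these genes. The SD of log2 CPM was larger among knockout than among wild type libraries for 7 of the 10 genes and for 49.0% of all genes tested. The 7 were the 5 called genes, Slco2b1 and Spic. Genes with fewer counts in knockout libraries have more counting error there, so the SD is set beside that error. For Vcam1 it was 0.36 in knockout libraries, where counting error alone gives 0.12, and 0.026 in wild type libraries, where it gives 0.053. For Slco2b1 it was 0.45 in knockout libraries (counting error 0.12) and 0.081 in wild type libraries (0.090). For Epb41l3 it was 0.34 in knockout libraries (counting error 0.19) and 0.067 in wild type libraries (0.11). The wild type libraries of Vcam1, Epb41l3, Itgad, Vsig4, Slco2b1 and Timd4 thus differed by no more than counting error, while in knockout libraries the spread of all of these but Timd4 (0.50, counting error 0.55) was above it. Siglec1, Cd5l and Fcna showed the opposite order, with 0.075, 0.13 and 0.16 in knockout and 0.21, 0.19 and 0.22 in wild type libraries, all above counting error. The median over all genes tested was 0.10 in either genotype. With 3 libraries each of these SDs is itself imprecise. That of Itgad in knockout libraries (1.70, counting error 0.45) rests largely on library 2, with 2 counts. The edgeR fit uses 1 dispersion per gene for both genotypes, so the standard errors above average over this difference.

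**Figure D4:**
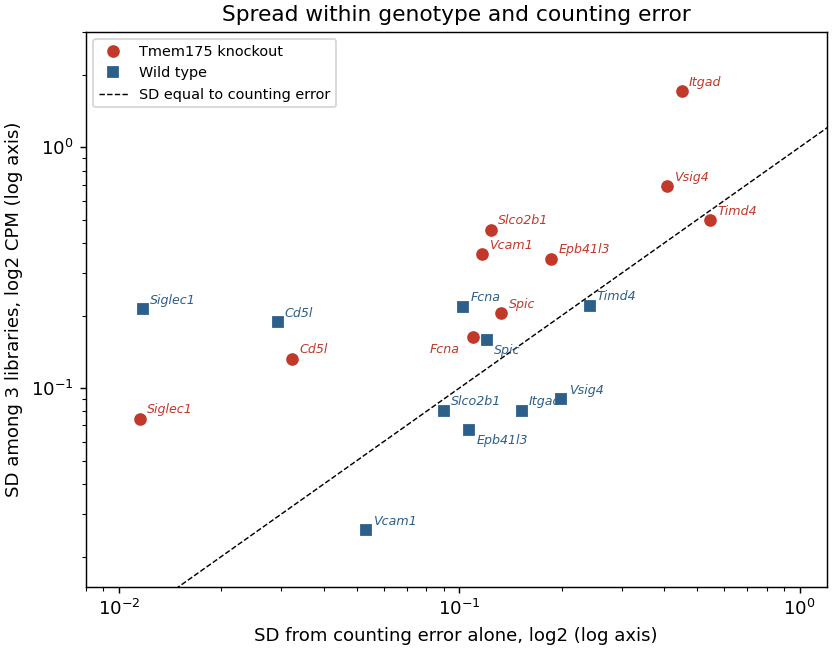
SD of log2 CPM among the 3 libraries of a genotype against the SD that counting error alone gives (both log axes; red, knockout; blue, wild type; dashed line, equality). The wild type points of 6 genes lie on or below the line, and of the knockout points only that of Timd4 does.

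Other macrophage genes, in 10 lists that leave the 10 genes out, were tested in the same fit. Of 132 listed genes tested, none was called by edgeR, none by limma-voom and 3 by DESeq2, with 9 lower (6.82%) and 6 higher (4.55%) at an unadjusted p under 0.05 in edgeR, against 3.04% and 2.40% of all genes tested. With 0.103% of all genes tested called by edgeR, the absence of a call in these lists is near that share. The median log2 fold change of the 132 genes was -0.027, and 123 of them lay within 0.5 of 0. Core macrophage genes had a median of 0.030 over 12 genes. Lyz1, a lysozyme gene, had the smallest p of this list (log2 fold change 1.36, SE 0.28, edgeR adjusted p = 0.303), with 180, 77.8 and 81.5 CPM in the knockout group and 47.3, 43.0 and 41.7 CPM in wild type libraries. It is a near-identical copy of Lyz2, and reads of the 2 genes may have been split between them. It was called without knockout library 1, where its log2 fold change was 0.86.

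The other genes of red pulp macrophages and iron recycling gave no call. The median was -0.0030 over 17 genes. The iron exporter gene Slc40a1 averaged 101 CPM in knockout libraries and 103 CPM in wild type ones (log2 fold change -0.026, SE 0.12), and the heme oxygenase gene Hmox1 averaged 330 CPM in knockout libraries and 327 CPM in wild type ones (0.012, SE 0.05). Gdf15, a secreted factor of the TGF-beta family, and Trf, the transferrin gene, had the smallest p (log2 fold changes 0.20, SE 0.06, and -0.27, SE 0.14; edgeR adjusted p = 0.734 and 0.939). Among other marrow island macrophage genes the median was -0.018 over 14 genes, and the erythropoietin receptor gene Epor and the inhibitory receptor gene Lilrb4a had the smallest p (-0.74, SE 0.30, and 0.19, SE 0.08; edgeR adjusted p = 0.908 for each).

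The other Kupffer cell genes had a median of -0.15 over 15 genes, 10 of them negative. At an unadjusted p under 0.05 in edgeR were 4 of the 15, all lower, against 3.04% of all genes tested that were lower. Kcna2, a potassium channel gene, had counts of 20, 30 and 42 in knockout and of 58, 82 and 85 in wild type libraries (log2 fold change -1.52, SE 0.31, edgeR adjusted p = 0.280). Kcna2 was called by DESeq2 (adjusted p = 0.00212). Cd38, an NAD-consuming ectoenzyme, stood at -0.97 (SE 0.32, edgeR adjusted p = 0.825). Clec4f, the lectin that defines Kupffer cells in mouse, had a count of 0 in all 6 libraries, which allows at most 0.0952 to 0.125 CPM in a library, for counting error only. The scavenger receptor gene Marco averaged 69.0 CPM in knockout libraries and 77.4 CPM in wild type ones (-0.17, SE 0.18).

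Peritoneal macrophage genes had a median of -0.16 over 13 genes, and Thbs1 and F10 had the smallest p (log2 fold changes -0.29, SE 0.09, and -0.18, SE 0.10; edgeR adjusted p = 0.734 and 0.947). Genes of microglia and alveolar macrophages had a median of -0.050 over 13 genes. Ear2, a ribonuclease gene with close relatives that may share its reads, averaged 1.62 ± 0.552 CPM in the knockout group and 4.51 ± 0.996 CPM in wild type libraries (SD, n = 3 each; log2 fold change -1.47, SE 0.27, edgeR adjusted p = 0.171). Ear2 was called by DESeq2 (adjusted p = 9.95e-05) and Chil3, a chitinase-like protein gene, was called higher by it (log2 fold change 0.32, adjusted p = 0.0352; edgeR adjusted p = 0.410).

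The factors known to set macrophage identity gave no call. Over 29 transcription factors the median was -0.038. None reached an unadjusted p of 0.05 in edgeR, against 3.04% of all genes tested lower and 2.40% higher. Spi1, which encodes PU.1, averaged 467 CPM in knockout libraries and 461 CPM in wild type ones (log2 fold change 0.020, SE 0.06), and Bach1, a repressor of Spic in mouse, averaged 209 CPM in knockout libraries and 211 CPM in wild type ones (-0.019, SE 0.04). The LXR gene Nr1h3 stood at -0.22 (SE 0.18); the transcription factor gene Cebpb stood at -0.25 (SE 0.12, edgeR adjusted p = 0.932).

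Partners and relatives of the 10 genes were also not called. Over 16 binding partners and ligands the median was 0.017. The VLA-4 chains Itga4 and Itgb1, receptors of VCAM1, stood at 0.058 (SE 0.11) and 0.0049 (SE 0.04), Itgb2, the partner of Itgad, at -0.020 (SE 0.07) and the ligand gene of Vsig4, C3, at -0.076 (SE 0.20). The smallest p of this list were those of Havcr2, which encodes TIM-3, and Itga9 (log2 fold changes 0.32, SE 0.08, and -0.41, SE 0.20; edgeR adjusted p = 0.586 and 0.932). Other siglecs had a median of -0.29 over 7 genes, with Cd33 at 0.30 (SE 0.09) and Siglech at -0.75 (SE 0.29; edgeR adjusted p = 0.734 and 0.900). Paralogs of the 10 genes had a median of 0.016 over 10 genes; the smallest p were those of Havcr2 and of Spib, a relative of Spic, at -0.85 (SE 0.26; edgeR adjusted p = 0.774).

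**Figure D5:**
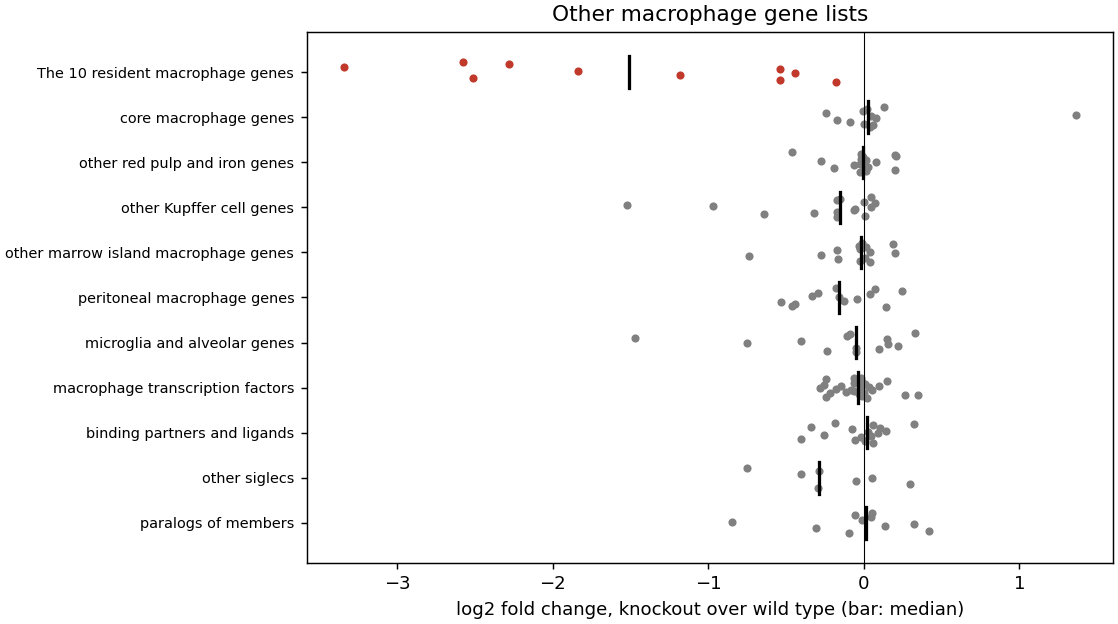
Log2 fold changes of knockout over wild type for the 10 resident macrophage genes (red) and for the tested genes of 10 other lists (grey), with bars at the medians. The red points were chosen with their values known; the medians of the grey lists lie between -0.29 and 0.030.

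The genes beside the 10 on their chromosomes gave no call. Of the 20 nearest protein-coding neighbours, 13 were tested and none was called by edgeR, by DESeq2 or by limma-voom. With 0.103% of all genes tested called by edgeR, this is near that share. None reached an unadjusted p of 0.05 in edgeR, against 3.04% of all genes tested lower and 2.40% higher. Their median log2 fold change was 0.033, with 6 negative. Itgax, an integrin chain gene that ends 3719 bases from Itgad, averaged 121 CPM in knockout libraries and 144 CPM in wild type ones (-0.26, SE 0.29), and Extl2 beside Vcam1 averaged 15.1 CPM in knockout libraries and 14.8 CPM in wild type ones (0.033, SE 0.08). Tpbgl, beside Slco2b1, and Fcrls, beside Cd5l, had the smallest p (-0.80, SE 0.37, and 0.15, SE 0.10; edgeR adjusted p = 0.918 and 0.966). Counting is not stated to use strand; antisense or other annotated genes overlapped Vcam1, Itgad, Epb41l3, Slco2b1 and Fcna. The largest of them, Cox6a2 within Itgad, had 124 counts over all 6 libraries, and that within Vcam1 had 0.

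The 5 genes whose log2 CPM followed Vcam1 most closely over the 6 libraries, among 9539 others with a mean of at least 5 CPM, were Ctif, Gm15931, Lyz2, Utp14b and Uck1, with Pearson correlations of 0.985, 0.985, 0.983, 0.982 and 0.981. These are descriptions over 6 libraries that share their scaling, picked as the highest of many, and they mostly follow the genotype split of Vcam1. Over deviations from the genotype means the correlations were 0.946, 0.238, 0.513, 0.424 and 0.651. Apart from Lyz2, their own log2 fold changes were small, from -0.33 to -0.16.

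Markers of other cells that a marrow culture could hold moved as follows beside these genes, and their part in the results was not tested. In 6 lists none of 60 genes tested was called by edgeR, against 0.103% of all genes tested. DESeq2 called 5 (S100a8, S100a9 and Lcn2 higher, Mpo and Ciita lower) and limma-voom 1 (S100a8, higher). At an unadjusted p under 0.05, 20 (33.3%) were lower and 7 (11.7%) higher, against 3.04% and 2.40% of all genes tested. Stromal and endothelial cells, which also express Vcam1, had summed markers of 73.8 to 91.0 CPM in the knockout group and 66.8 to 112 CPM in wild type libraries, with a median log2 fold change of -0.13 over 11 genes. Dendritic cell markers summed to 976 to 1523 CPM in the knockout group and 1567 to 1701 CPM in wild type libraries, and neutrophil markers to 856 to 937 CPM in knockout libraries and 520 to 750 CPM in wild type ones, neither with overlap (medians -0.38 over 12 genes and 0.33 over 14). Markers of B, T and NK cells summed to 89.0 to 123 CPM in the knockout group and 119 to 180 CPM in wild type libraries, those of mast cells, basophils and eosinophils to 33.1 to 54.1 CPM in knockout libraries and 46.5 to 62.1 CPM in wild type ones, and those of erythroid cells and megakaryocytes to 390 to 471 CPM in knockout libraries and 459 to 550 CPM in wild type ones. Single genes carried much of these sums. Cd4 stood at 101, 77.8 and 108 CPM in knockout libraries and at 146, 161 and 104 CPM in wild type libraries, while Cd3e, Cd3g, Cd8a, Trac and Ncr1 had too few counts to be tested. The class II genes H2-Ab1 and H2-Eb1 averaged 533 and 479 CPM in knockout libraries and 702 and 633 CPM in wild type libraries, within the dendritic cell sum. Tfrc, the transferrin receptor gene, averaged 309 CPM in knockout libraries and 340 CPM in wild type libraries, within the erythroid sum. S100a8 and S100a9 averaged 174 and 294 CPM in knockout libraries and 108 and 193 CPM in wild type libraries, within the neutrophil sum. Of the 14 neutrophil genes 3 had negative fold changes, among them Mpo, at 7.94 CPM in knockout libraries and 13.5 CPM in wild type ones. The medians of the B, T and NK cell, the mast cell, basophil and eosinophil, and the erythroid and megakaryocyte lists were -0.52 over 7 genes, -0.64 over 9 and -0.51 over 7. The globin genes Hbb-bs and Hbb-bt had a count of 0 in all 6 libraries, while Hba-a1 had counts of 6, 2 and 3 in knockout and of 5, 4 and 2 in wild type libraries. How reads that match more than 1 gene were counted is not stated, so a count of 0 may not show absence.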

How the data were processed

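Gene expression was measured by RNA sequencing of 3 Tmem175 knockout and 3 wild type samples of bone marrow-derived macrophages. The deposited values are unnormalized counts for each Ensembl gene. The submitters' processing notes name HISAT2, featureCounts and the build GRCm38; neither versions nor annotation release nor strand setting is stated. Per the labels' protocols, RNA came from TRIzol lysates and libraries from a SMARTer kit. GENCODE M21, on that build, supplied symbols and positions and matched 55240 of 55421 IDs.

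Counts were filtered with filterByExpr, scaled by TMM and compared with edgeR 4.0.16 (R 4.3.3) by a two-sided quasi-likelihood test on genotype alone, with Benjamini-Hochberg adjustment over 13588 genes and calls at 0.05. Standard errors were derived from the F statistic. CPM are relative to the scaled total of the genes tested. Counting error assumes Poisson counts, and intervals and floors (3 counts) cover counting error only. The fit was checked on simulated data that had 1 dispersion per gene for both genotypes. That check does not cover genes whose spread differs between genotypes. DESeq2 1.42.0 and limma-voom (limma 3.58.1) were among 16 alternatives. The 10 genes and all lists were chosen with earlier results of these data known. Named beside the 10 genes are Tmem175, Lyz2, the genes called or else the 2 with the smallest p in each list and among neighbours, and the 5 most like Vcam1, except 1 listed gene that is not reported here; Adgre1, Slc40a1, Hmox1, Marco, Clec4f, Spi1, Bach1, Nr1h3, Itga4, Itgb1, Itgb2, C3, Itgax, Extl2, Cox6a2, Cd4, other lymphocyte genes, H2-Ab1, H2-Eb1, Tfrc and the globin genes were named for their roles or position after their values were seen. The 5 genes of other cells that DESeq2 called were also named after their values were seen. No pair of libraries of a genotype agreed within sampling noise (chi-square over its degrees of freedom 3.66 to 17.6).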

Additional observations from a re-analysis of the deposited data

How the results depend on the processing

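No fold change of the 10 genes, or of the list genes and neighbours named by their p, changed sign under any of the 16 alternatives that gave them a value. Of 19 genes named as checks or for their role or position, 11 changed sign, and none of these 11 was called under any alternative. The 5 genes of other cells that DESeq2 called are not among these 19. With library totals Slc40a1, Bach1 and Itgb2 stood at 0.014, 0.025 and 0.022 on the log2 scale, and with upper-quartile scaling Itgb1 stood at -0.0020. Without 1 library the log2 fold changes ran over both signs for Adgre1 (-0.0033 to 0.072), Slc40a1 (-0.17 to 0.064), Hmox1 (-0.026 to 0.045), Marco (-0.40 to 0.020), Spi1 (-0.0086 to 0.080), Bach1 (-0.044 to 0.00024), Itga4 (-0.078 to 0.18), Itgb1 (-0.016 to 0.026), Itgb2 (-0.096 to 0.035), C3 (-0.20 to 0.21) and Extl2 (-0.023 to 0.11). Under every scaling, limma-voom, bias-corrected quasi-dispersions and a robust prior, 5 of the 10 genes were called lower. DESeq2's Wald test and the fit without a filter each called 7 (Cd5l and Slco2b1 were added), and a mean of at least 1 CPM left 4, since Timd4 was filtered out. Over the fits without 1 library, 2 to 4 of the 10 genes were called. Across all genes, 12 were lower and 2 higher in knockout. DESeq2 gave 30 lower and 10 higher, no filter 112 and 39, and the fits without 1 library 4 to 10 lower and 0 to 2 higher. Of the comparison lists 0 genes were called, against 3 with DESeq2, 11 without a filter, 1 with the replicate block (Ear2, adjusted p = 0.0382) and 0 to 1 without 1 library. Of the lists of other cells 0 were called, against 1 each with library totals, limma-voom and bias-corrected quasi-dispersions, 5 with DESeq2, 20 without a filter, 2 with the replicate block and 0 to 1 without 1 library. No neighbour was called under any alternative. The cause of these shifts was not tested.

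Same-numbered libraries did not deviate together (correlations of their deviations 0.045, -0.11 and 0.036 for replicates 1, 2 and 3). Of the 3 knockout libraries only library 3 deviated most like its own number in wild type. These values cannot exclude that same-numbered samples were prepared together, which the labels do not state. With the replicate block 14 genes were lower and 3 higher and 5 of the 10 genes were called, with Slco2b1 (adjusted p = 0.0382) in place of Vsig4 (0.0610). Low counts limit Timd4, Vsig4 and Itgad, with 21, 38 and 31 counts over the 3 knockout libraries.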
